A study of Mus musculus with 2 samples.

Results

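The milk genes examined here were 10 genes of the mammary secretory programme, taken by their names from a table of 49492 genes. They comprised 5 caseins (*Csn1s1*, *Csn1s2a*, *Csn1s2b*, *Csn2* and *Csn3*), 2 whey proteins (*Wap* and *Lalba*), 2 proteins of the milk fat globule (*Btn1a1* and *Mfge8*) and the mucin-like milk protein *Glycam1*. All 10 were found in the table. They were measured in mammary basal cells, the outer contractile layer of the mammary duct, sorted by flow cytometry as CD24 positive, CD29 high cells after removal of CD45, CD31 and TER119 positive cells. Glands came from adult wild-type female mice aged 8 to 10 weeks. CL basal was the library from mice given clodronate liposomes (CL), vesicles that kill the macrophages that ingest them, by repeated intraperitoneal injection. Ctrl basal was the library from control mice, whose treatment is labelled as none while the series design names saline. Both libraries are labelled Day 7 and WT, and neither the strain nor the number of mice pooled is given in the labels.

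Caseins are the main proteins of milk and are packed with calcium phosphate into micelles, which kappa-casein (*Csn3*) holds in suspension. They are made in bulk by luminal cells that have turned into alveolar cells in late pregnancy and lactation, when prolactin acts through its receptor, the kinase Jak2 and the transcription factor Stat5. The reproductive state of the mice is not given in the sources used here.

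There was 1 library per group, and differences between them could therefore not be set against replicate error or tested. Intervals cover counting error only. The total was 37846008 counts in Ctrl basal and 38962512 in CL basal, a ratio of 1.03. The basal label was checked against 14 basal and myoepithelial markers, all with counts above the filter and led by the smooth muscle myosin *Myh11* (285095 counts in Ctrl basal and 290054 in CL basal) and the keratins *Krt14* (210758 and 232845) and *Krt17* (87869 and 98774). Their log2 fold changes, taken throughout as CL basal over Ctrl basal, had a median of 0.08, with 0 of the 14 differing by 2-fold. The 12 luminal markers were also present and were lower in CL basal, as described below.

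Of the 10 milk genes, 6 had at least 1 count, 5 reached the minimum of 20 counts over both libraries that was set for a comparison, and 4 had no count in either library. The 5 that were compared (*Csn3*, *Lalba*, *Btn1a1*, *Mfge8* and *Glycam1*) were all lower in CL basal, with 95% intervals that lay wholly below no change on the counts as deposited. With counts halved, to allow for double counting of paired reads, that of *Btn1a1* included no change (-1.61 to 0.04). Of all 17356 genes compared, 51.7% were lower in CL basal by any amount. A change of at least 2-fold was reached by 2 of the 5, *Csn3* and *Lalba*, both lower, against 4.78% of all genes compared. *Lalba* reached the minimum through Ctrl basal alone (30 counts, and 2 in CL basal). A gene with 2 counts in CL basal is compared only if it is far lower there, so this call was fixed by the filter. With a minimum of 100 counts, 1 of 4 milk genes was lower by 2-fold, against 1.82% of all genes at that depth. None of the 5 was higher by 2-fold, against 2.07% of all genes. At a change of 1.5-fold, 4 of the 5 were lower, against 11.7%. The median log2 fold change of the 5 was -0.90, beside -0.01 over all genes compared. After correction for a dependence of the log2 ratio on expression level, the genome-wide calls split into 662 lower and 487 higher (57.6% lower) in place of 830 and 360 (69.7% lower), and the same 2 milk genes remained past 2-fold.

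**Figure D1:**
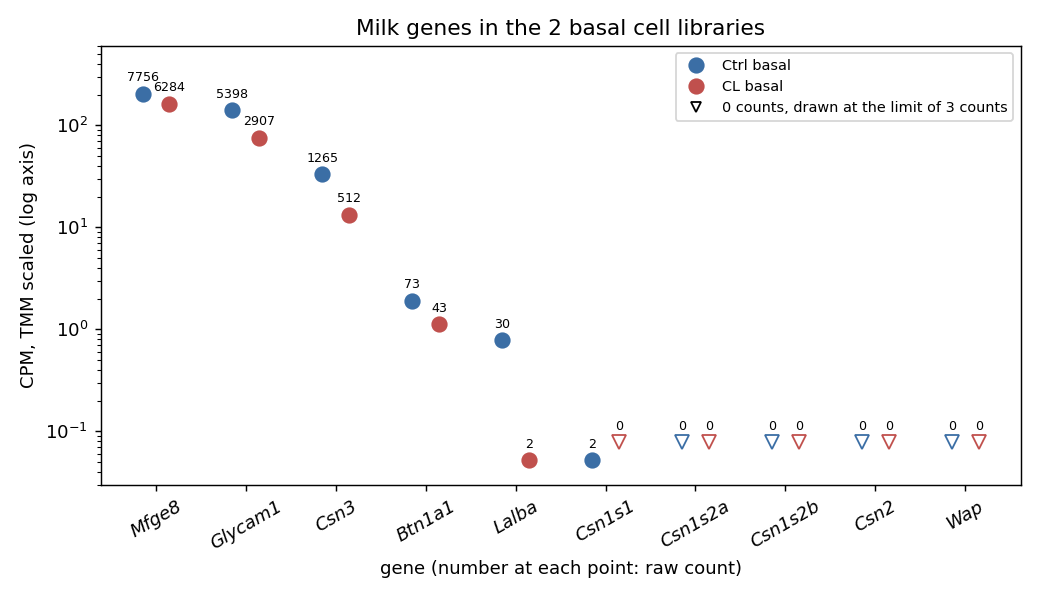
The 10 milk genes in Ctrl basal (blue) and CL basal (red), in CPM (counts per 1000000 of the TMM-scaled library size) on a log axis, with the raw count printed at each point and open triangles for 0 counts drawn at the limit of 3 counts. The 5 genes with enough counts all sit lower in CL basal, from *Mfge8* (7756 and 6284 counts) to *Lalba* (30 and 2), and the other 5 genes have 0 to 2 counts.

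The caseins differed among themselves far more than any of them differed between libraries. *Csn3* (chromosome 5, 87925579 to 87932665, plus strand, GRCm38) had 1265 counts in Ctrl basal and 512 in CL basal. That is 33.0 and 13.3 CPM (counts per 1000000 of the effective library size), a level 2.48-fold lower in CL basal (95% exact binomial interval 2.23 to 2.75), or a log2 fold change of -1.30. *Csn1s1* (87666208 to 87682578, plus strand), the alpha-S1-casein, had 2 counts in Ctrl basal and 0 in CL basal, which is too few to compare. *Csn2* (87692624 to 87699630, minus strand), the beta-casein, and the alpha-S2-caseins *Csn1s2a* (87774567 to 87788797, plus strand) and *Csn1s2b* (87808082 to 87824426, plus strand) had 0 counts in both libraries. A working limit was set at 3 counts, which is 0.0782 CPM in Ctrl basal and 0.0780 CPM in CL basal. The exact Poisson 95% interval of a count of 0 reaches above this limit. In both libraries, then, kappa-casein was the only casein above that limit, and no difference of the other 4 was detectable at this depth.

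The 5 caseins lie together on chromosome 5 over 266 kb, with *Csn3* set apart by 101 kb from its nearest casein, *Csn1s2b*. The 27 other annotated genes within 200 kb of the cluster held 10 counts in Ctrl basal and 2 in CL basal in all, and 0 of them reached 20 counts. The most were 8 counts, for *BC051076*. The signal of the locus was thus that of *Csn3*, whose exons shared no base with those of another gene in the table. The same held for the other 9 milk genes.

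**Figure D2:**
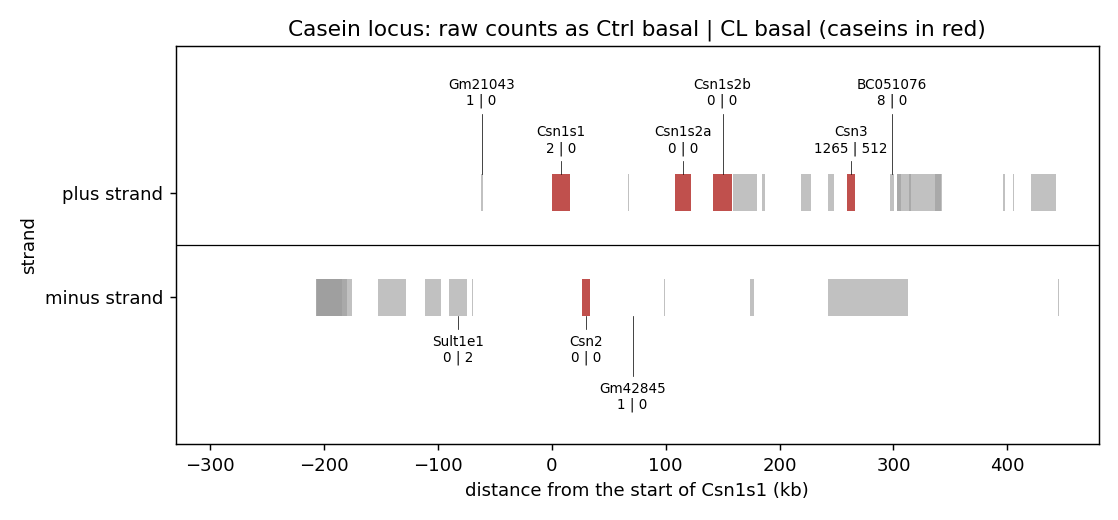
Genes of the casein locus by strand, placed by distance in kb from the start of *Csn1s1*, with caseins in red and other genes in grey. Raw counts are printed as Ctrl basal | CL basal for caseins and for any gene with a count. *Csn3* (1265 and 512) is the only gene of the region with more than 8 counts.

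The promoters of casein genes are known targets of Stat5, which binds sites of the form TTCNNNGAA, a pattern that reads the same on both strands. RefSeq promoter windows on GRCm38.p6 were matched for 7 of the 10 milk genes, and the 250 bases before each start were searched. *Csn3*, *Csn1s2b* and *Btn1a1* were not searched. The pattern was found in 3 of the 7 windows searched, those of *Csn1s1*, *Csn2* and *Glycam1*, once in each, and in 7.02% of all 32851 promoter windows of this length. It was not found in the windows of *Csn1s2a*, *Wap*, *Lalba* and *Mfge8*. A match is a description of these letters and not a measured binding site. In *Csn2* the match was TTCTTGGAA at position -93, and since RefSeq starts the gene at 87699425 and the count table at 87699630, the match lies inside the gene as the table has it. The windows of *Csn1s1* and *Glycam1* are shown, since they set a casein with at most 2 counts beside the most abundant milk gene per length. Each is written 5′ to 3′ and ends at the base before the RefSeq start, position -1, with the pattern in capitals.
Csn1s1 (chr5:87665958-87666207, plus strand, match starting at position -100): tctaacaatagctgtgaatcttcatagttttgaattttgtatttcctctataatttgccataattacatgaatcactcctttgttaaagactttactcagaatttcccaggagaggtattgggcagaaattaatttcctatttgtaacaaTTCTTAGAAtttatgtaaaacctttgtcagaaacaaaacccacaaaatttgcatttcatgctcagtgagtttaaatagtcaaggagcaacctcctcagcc
Glycam1 (chr15:103565082-103565331, minus strand, match starting at position -145): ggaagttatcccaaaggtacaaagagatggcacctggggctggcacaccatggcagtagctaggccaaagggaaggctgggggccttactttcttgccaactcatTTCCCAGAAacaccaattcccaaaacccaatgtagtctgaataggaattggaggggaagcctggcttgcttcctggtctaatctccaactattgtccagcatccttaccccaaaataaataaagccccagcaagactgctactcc

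The pattern was present both at genes with 0 to 2 counts and at *Glycam1*, the second of the 10 by raw count.

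The whey proteins were rare. *Lalba* (chromosome 15, 98480400 to 98482683, minus strand) encodes alpha-lactalbumin, the subunit that turns a galactosyltransferase into lactose synthase. It had 30 counts in Ctrl basal and 2 in CL basal, or 0.782 and 0.0520 CPM. The level in CL basal was 0.0665 times that in Ctrl basal, with a wide 95% exact binomial interval of 0.00770 to 0.262. The CL basal value is below the limit of 3 counts. The log2 fold change of -3.00 depended on the prior count added to each library and ran from -3.61 to -2.32 over the alternatives. With counts halved, its log2 interval ran from -9.31 to -1.21. *Wap* (chromosome 11, 6635482 to 6638637, minus strand), the whey acidic protein that is a classical marker of late pregnancy, had 0 counts in both libraries.

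The milk fat globule is the lipid droplet as it leaves the cell in a coat of plasma membrane. *Btn1a1* (chromosome 13, 23456992 to 23465901, minus strand), the butyrophilin that anchors this coat, had 73 counts in Ctrl basal and 43 in CL basal. The level was 1.70-fold lower in CL basal, short of 2-fold, at a log2 fold change of -0.74 (95% interval -1.35 to -0.20). With counts halved, as given above, no difference was detectable. *Mfge8* (chromosome 7, 79133768 to 79149060, minus strand), a secreted protein of the globule that also bridges dying cells to phagocytes, had 7756 counts in Ctrl basal and 6284 in CL basal. Its log2 fold change of -0.31 (-0.35 to -0.26) was the smallest of the 5, a level 1.24-fold lower in CL basal.

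*Glycam1* (chromosome 15, 103562762 to 103565078, minus strand) encodes a mucin-like glycoprotein of milk, known also as a ligand of L-selectin on high endothelial venules, the vessels through which lymphocytes enter lymph nodes. It had 5398 counts in Ctrl basal and 2907 in CL basal. Its level was 1.86-fold lower in CL basal, at a log2 fold change of -0.90 (95% interval -0.96 to -0.83). Among the 7097 genes with at least 1000 counts, 0.521% were lower by 2-fold and 2.21% by 1.5-fold. Of the 3 milk genes at that depth, 1 (*Csn3*) was lower by 2-fold and 2 (*Csn3* and *Glycam1*) by 1.5-fold.

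**Figure D3:**
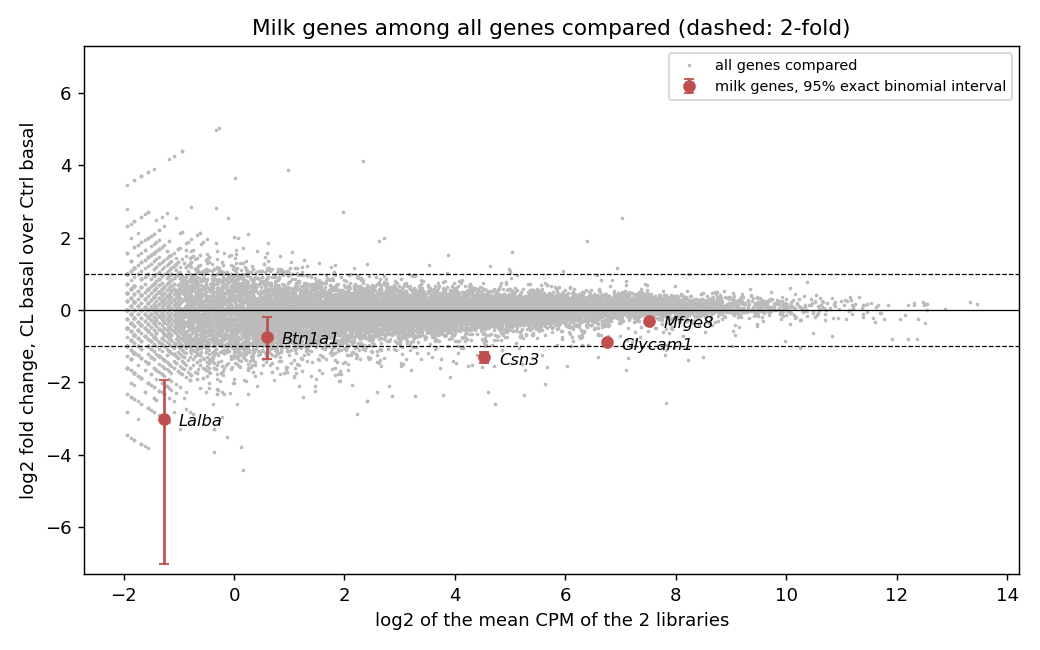
Log2 fold change of CL basal over Ctrl basal against the log2 of the mean CPM, for all 17356 genes compared (grey) and for the 5 milk genes with enough counts (red, 95% exact binomial intervals). *Csn3* (-1.30) and *Glycam1* (-0.90) lie below the dense band of genes of like abundance, *Mfge8* (-0.31) lies at its edge, and the interval of *Lalba* is long because it rests on 32 counts.

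Compared per length of annotated exon (CPM per kb), *Glycam1* was the highest in Ctrl basal at 225, above 98.7% of the genes compared. *Mfge8* followed at 43.1 and *Csn3* at 7.94. *Lalba* stood at 1.07 (95% exact Poisson interval 0.720 to 1.52) and *Btn1a1* at 0.484 (0.379 to 0.608). In CL basal the order of the first 3 was the same, at 121, 34.8 and 3.21 CPM per kb, and the last 2 changed places, with *Btn1a1* at 0.284 (0.206 to 0.383) and *Lalba* at 0.0710 (0.00860 to 0.256). The Poisson intervals of *Btn1a1* and *Lalba*, on the counts as deposited, did not overlap in Ctrl basal but overlapped in CL basal. Overlap of separate intervals is not a test of order, and the order of these genes was not tested in either library. For *Csn3* the deposited exonic length (4152 bases) was longer than the principal transcript in GENCODE M21 (991 bases). For *Lalba* it was shorter (733 and 771 bases), so the annotations differ for that gene. With the length of the principal transcript, a choice made after seeing the data, *Csn3* moved to 33.3 and 13.4 CPM per kb and *Mfge8* to 95.2 and 76.9 in Ctrl basal and CL basal, and the order of the 5 genes stayed the same in each library. *Mfge8* and *Glycam1* together held 90.6% of all milk gene counts in Ctrl basal and 94.3% in CL basal.

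The 12 luminal markers listed, which a gate on basal cells should hold down, moved with the milk genes. All 12 were lower in CL basal, 6 of them by 2-fold, with a median of -0.96 and a sum of 225725 counts in Ctrl basal and 146121 in CL basal. The 6 were *Krt19*, *Krt7*, *Prom1* and the tight junction claudins *Cldn3*, *Cldn4* and *Cldn7*, from -1.06 (*Cldn3*) to -1.65 (*Krt7*, 8003 counts in Ctrl basal and 2563 in CL basal). The most abundant were *Krt8* (86539 and 53150 counts), *Krt18* (49639 and 27492) and *Epcam* (40023 and 33600), at -0.71, -0.86 and -0.26. *Gata3*, a luminal gene kept here in the prolactin and Stat5 list, went the other way, with 952 counts in Ctrl basal and 1443 in CL basal (0.596). In such bulk libraries, fewer luminal cells and less RNA per cell cannot be told apart, and the part of luminal cells in the milk gene values was not tested.

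Dividing by the summed luminal markers of each library moves every gene by the same amount and leaves the gaps between genes as they were. Per 1000 luminal marker counts, *Csn3* had 5.60 counts in Ctrl basal and 3.50 in CL basal, and *Lalba* had 0.133 and 0.0137. *Glycam1* had 23.9 and 19.9, and *Btn1a1* 0.323 and 0.294. *Mfge8*, which had the smallest fold change of the 5, had 34.4 and 43.0. The sum is mostly *Krt8*, *Krt18* and *Epcam*, and another choice of marker would give another shift.

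Kinds of luminal cell were described by further lists. The luminal progenitor and alveolar list held 12 genes, among them *Csn3* and *Mfge8*. Of its other 10 genes, 9 were lower in CL basal, with a median of -0.53. Of these, 2 passed 2-fold, the aldehyde dehydrogenase *Aldh1a3* (19601 counts in Ctrl basal and 8048 in CL basal, -1.29) and *Wfdc18* (1500 and 516, -1.54), a small secreted protein with the same core fold as Wap. The hormone sensing luminal list had a median of -0.87, with all 10 genes lower and 3 of them past 2-fold. These 3 were the growth factor *Areg* (7665 and 3094 counts, -1.31), *Wnt4* (269 and 105, -1.34) and *Prom1* (303 and 120, -1.33). *Foxa1*, a factor that opens chromatin for the estrogen receptor, was at -0.88 (499 and 271 counts).

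Since *Glycam1* is also a gene of high endothelial venules, 7 markers of those vessels were read beside it. They summed to 4366 counts in Ctrl basal and 3283 in CL basal, and the 5 with enough counts were lower in CL basal with a median of -0.39. *Ccl21a*, a chemokine of lymph node vessels that may share reads with near-identical copies, had 1863 counts in Ctrl basal and 1272 in CL basal (-0.55). *Enpp2* had 1764 and 1349 (-0.39), *Cd34* 391 and 367 (-0.09), *Ackr1* 151 and 115 (-0.39) and *Madcam1*, the addressin of mucosal venules, 189 and 168 (-0.17). The sulfotransferase *Chst4*, which modifies Glycam1 in those vessels, was near 0 (8 and 4 counts), and *Fut7* had 0 counts in Ctrl basal and 8 in CL basal. *Glycam1* had 1236 counts per 1000 counts of this list in Ctrl basal and 885 in CL basal. The 8 general endothelial markers held 17494 and 14150 counts with a median of -0.31, led by *Cdh5* (6462 and 5173 counts), *Pecam1* (5503 and 4266), which encodes the CD31 that the sort was meant to remove, and *Kdr* (1413 and 1114). Of these 8, 6 were lower and 2 higher, namely *Emcn* (154 and 215 counts, 0.47) and *Vwf* (1227 and 1260, 0.04). Whether vessel RNA forms part of the *Glycam1* value was not tested.

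Markers of macrophages and adipocytes were read in the same way. The 12 macrophage markers summed to 1810 counts in Ctrl basal and 1457 in CL basal, and of the 9 with enough counts 7 were lower and 2 higher, with a median of -0.33. The most abundant were *Cd14* (748 and 468 counts), *Mertk* (353 and 421) and *Cd68* (233 and 185). *Cd14*, which had the widest gap in counts of the 12, is also in the luminal progenitor and alveolar list. The 1 that passed 2-fold was *C1qc*, with 16 and 6 counts, and *Mrc1* had 168 and 86 counts. Of the others, *Lyz2* had 138 and 118 counts, *Csf1r* 64 and 89, *Itgam* 55 and 52, *C1qa* 16 and 12, *C1qb* 12 and 6, *Adgre1* 7 and 10, and *Fcgr1* 0 and 4. The 10 adipocyte markers summed to 5161 and 3767 counts, of which *Fabp4* made up 4648 and 3465 and which included *Pparg* (248 and 126) and *Plin4* (102 and 86). All 6 adipocyte genes with enough counts were lower, with a median of -0.85, and 2 passed 2-fold, *Plin1* (30 and 12 counts) and *Car3* (26 and 4). The hormone *Lep* had 88 and 52 counts. The 4 with too few counts to compare were *Cidec* (8 and 6), *Cfd* (6 and 4), *Adipoq* (5 and 10) and *Retn* (0 and 2). The adipocyte median was close to that of the 5 milk genes compared (-0.90), but its genes ranged from -2.22 (*Car3*) to -0.24 (*Plin4*). *Fabp4*, which held most counts of the list, was at -0.43. The part of these cells in the milk gene values was not tested.

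Other genes of milk secretion were described by lists of their own. Of 14 other milk proteins, 11 were compared, 9 were lower in CL basal and 1 passed 2-fold, the *Wfdc18* given above. The list median was -0.43. The most abundant were transferrin (*Trf*, 6780 counts in Ctrl basal and 7256 in CL basal, 0.09), the siderophore binder *Lcn2* (7504 and 6221, -0.27) and lactoferrin (*Ltf*, 5201 and 3176, -0.71).

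Genes that make milk fat, lactose and the ions of milk went both ways. Of 22 genes of lipid synthesis and secretion, 14 were lower and 8 higher, 0 passed 2-fold in either direction, and the median was -0.16, with values from -0.81 (*Cidea*) to 0.73 (*Thrsp*, which had only 10 and 18 counts). Fatty acid synthase (*Fasn*) had 3684 counts in Ctrl basal and 4814 in CL basal (0.38), *Gpat4* had 3008 and 3211 (0.09) and the fatty acid binding protein *Fabp4* was at -0.43. Of 15 genes of lactose and ion secretion, 11 were lower and 4 higher, with a median of -0.13 and values from -1.59 (*Aqp5*) to 0.79 (*Pthlh*). The 1 that passed 2-fold was the water channel *Aqp5* (764 counts in Ctrl basal and 253 in CL basal, -1.59). The sodium, potassium and chloride carrier *Slc12a2* (10626 and 8430 counts) was at -0.34, the water channel *Aqp3* (6499 and 7443) at 0.19, and the glucose carrier *Slc2a1* (6673 and 6550) at -0.03, a value whose 95% interval of -0.08 to 0.02 includes no change.

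Genes of prolactin and Stat5 signalling were then read, a list that holds upstream components together with Stat5 targets and feedback inhibitors. All 25 were compared, 13 were lower and 12 higher in CL basal, 0 passed 2-fold and the median was -0.003. The prolactin receptor *Prlr* had 812 counts in Ctrl basal and 447 in CL basal, a log2 fold change of -0.86 (95% exact binomial interval -1.03 to -0.70), which was the lowest of the list. *Prlr* is also in the hormone sensing luminal list, whose 10 genes were all lower with a median of -0.87. The feedback inhibitor *Socs3* had 16755 and 23516 counts (0.49). *Ybx1* (69955 and 75555 counts) and the corepressor *Ncor1* (10782 and 11634) were both at 0.11. The next 6 genes are named for their place in the pathway, after their values were seen. *Jak2* was at -0.21 (6524 and 5641 counts), *Stat5b* at -0.22 (684 and 589) and *Stat5a* at -0.10 (1410 and 1319, interval -0.21 to 0.01). *Elf5*, the alveolar transcription factor, had 84 and 69 counts, and its interval of -0.77 to 0.19 included no change. *Cish*, a Stat5 target that dampens the receptor, was the highest of the list at 0.60 (495 and 753 counts), while *Socs2*, another feedback gene that Stat5 induces, had 780 counts in both libraries.

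The casein kinase of the Golgi and the general secretory machinery formed the last list. Of its 16 genes, 10 were higher and 6 lower in CL basal, 0 passed 2-fold, and the median was 0.13. The chaperones of the endoplasmic reticulum led it in abundance, with *Calr* at 0.35 (76518 counts in Ctrl basal and 97663 in CL basal), *Hspa5* at 0.34 (61396 and 78092) and *Canx* at 0.10 (27097 and 29156).

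**Figure D4:**
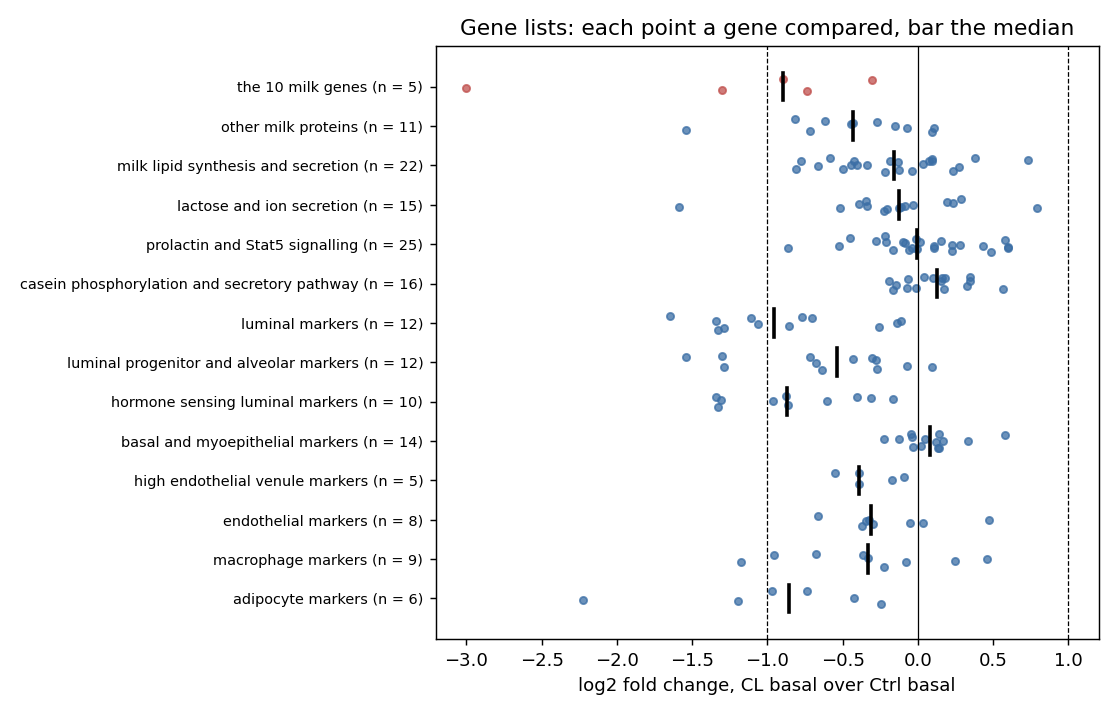
Log2 fold change of CL basal over Ctrl basal for each gene with enough counts (points) in the 10 milk genes (red) and in the other lists (blue), with the median as a bar and dashed lines at 2-fold. The lowest medians are those of the luminal list (-0.96), the milk genes (-0.90), the hormone sensing luminal list (-0.87) and the adipocyte list (-0.85), with luminal progenitor and alveolar genes at -0.53, and the prolactin and Stat5 list has genes on both sides of its median of -0.003.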

How the data were processed

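RNA of sorted mammary basal cells was measured with a SMARTER mRNA-Seq kit in 1 Ctrl basal and 1 CL basal library, grouped by the sample titles. The authors deposited an unnormalized count of reads for each gene, in a table whose columns are those that featureCounts writes. The build was GRCm38 per the submitters' processing notes. The aligner, annotation release and use of strand are not given in the sources used here. The exonic length deposited in the same table, in bases, was used only for levels per kb. A further pair of deposited columns held the ratio of the libraries and its log2 and was not used.

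Even numbers made up 67.9% (Ctrl basal) and 68.7% (CL basal) of the counts between 1 and 20, and 49.7% and 49.9% of those over 1000, so that each mate of a pair may have been counted and the intervals may be too narrow. PCR copies may narrow them further.

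Counts were scaled with the trimmed mean of M-values (TMM) of edgeR 4.0.16 in R 4.3.3 (factors 1.01 for Ctrl basal and 0.987 for CL basal). A gene was compared if its 2 counts summed to 20 or more, a prior count of 2 was added, and a gene was called at a change of at least 2-fold. No p-value is given, since 1 library per group allows no estimate of the spread between replicates. Intervals of 95% are exact binomial (Clopper-Pearson) for ratios and exact Poisson for levels, from scipy 1.17.1 in Python 3.11.15. The procedure was run on simulated Poisson counts. These held no double counting of mates, no PCR copies and no spread between mice, so the run cannot speak to those.

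Besides the 10 milk genes, the text names in each list the 3 genes with the most counts and up to 6 called genes with at least 100 counts, and in the casein locus any gene with at least 20 counts. *Ackr1*, *Madcam1*, *Chst4*, *Fut7*, *BC051076*, *Emcn*, *Vwf*, *Gata3*, *Thrsp*, *Cidea*, *Pthlh* and the macrophage and adipocyte markers beyond the first 3 of each list were also named, after their values were seen. The milk genes and all lists were chosen with earlier results of these data known. Alternatives were scaling by total counts, DESeq2 1.42.0 size factors or the upper quartile, prior counts of 0.5 and 5, other filters on low counts, a threshold of 1.5-fold, the requirement that the interval exclude no change, counts halved, and removal of the trend on mean expression.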

Additional observations from a re-analysis of the deposited data

How the results depend on the processing

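The 5 compared milk genes were lower in CL basal under every alternative that gave them a value. The log2 fold change of *Csn3* ran from -1.34 to -1.27, that of *Lalba* from -3.61 to -2.32, *Btn1a1* from -0.78 to -0.63, *Mfge8* from -0.39 to -0.27 and *Glycam1* from -0.97 to -0.86. With at least 100 counts, *Lalba* was not compared, so 1 milk gene was lower by 2-fold and the median over 4 genes was -0.82. At 1.5-fold, 4 were lower, since *Btn1a1* and *Glycam1* pass that threshold. Without the trend on mean expression the median was -0.97, which is the value of *Glycam1* after the fitted trend was subtracted. Without a filter, 3 were lower by 2-fold, but the third, *Csn1s1*, rests on 2 counts against 0. No alternative put a milk gene higher by 2-fold. Over all genes, the calls went from 830 lower and 360 higher to 3207 and 1342 without a filter, 246 and 65 with at least 100 counts, and 2029 and 1100 at 1.5-fold. Among 50 named genes, 397 of 449 values stayed within the 95% interval, and 3 values changed sign, those of *Slc2a1* with the upper quartile (0.01) and of *Myh11* with total counts (-0.02) and without the trend (-0.05). No paired analysis was possible because there was only 1 library in either group. Depth limits *Lalba*, *Btn1a1* and the 5 genes with under 3 counts.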

Other observations

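A few genes of the same lists that the rule for named genes did not choose stood at the edges of their lists, and they are given here after their values were seen. *Plin2*, the coat protein of milk lipid droplets, had 3712 counts in Ctrl basal and 2171 in CL basal, a log2 fold change of -0.78 (95% exact binomial interval -0.85 to -0.70). *Cidea*, which joins lipid droplets, had 96 and 54 counts (-0.81, -1.34 to -0.34), and *Scd1*, the desaturase of milk fat, had 850 and 536 (-0.67, -0.83 to -0.51). *Muc1*, the transmembrane mucin of the fat globule coat, had 267 and 151 counts (-0.82, -1.12 to -0.53). *Pthlh*, a hormone that mobilises calcium for milk, stood the other way, with 211 counts in Ctrl basal and 368 in CL basal (0.79, 0.55 to 1.05). None of these 5 genes reached 2-fold, and there was no replicate to set them against.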
